A study of Mus musculus with 4 samples.

Results

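The genes described here encode the enzymes of nucleotide, one-carbon and polyamine synthesis, measured in sorted cells of mouse colon. They were the 37 genes of a named list, found on the array by the gene name of the non-control probes, and each was given 1 value. All 37 were on the array, out of 28307 gene names, and all 37 were bright enough to be tested among 14802 genes. The list was split into 5 steps: 12 purine genes, 5 pyrimidine genes, 8 deoxynucleotide genes, 8 folate and serine genes and 4 polyamine genes.

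The cells came from colonic crypts of adult Lgr5_EGFP-ires-CreERT2 knockin mice, in which the Lgr5 promoter drives GFP, a green fluorescent protein. Both populations therefore carried the same allele. One was sorted for GFP and is labelled Lgr5-GFP, after the stem cell receptor gene Lgr5. The other was sorted with an antibody against CD24, is labelled CD24hi, and per the study's design text was meant to hold a subset of goblet cells. For each population 300 ng of total RNA was labelled and both were hybridised together on 2-colour arrays, in 2 replicates, each on an array and again with the dyes swapped, 4 arrays in all. Whether the replicates are separate animals is not in the labels. The p-values therefore reflect the spread of these samples alone, and that spread may be technical.

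Each value below is a log2 ratio of the RNA labelled Lgr5-GFP over the RNA labelled CD24hi, so that -1 is a 2-fold lower and 1 a 2-fold higher signal in the RNA labelled Lgr5-GFP. The ratios of an array and its swap were averaged per replicate, the SD is that of the 2 replicates, and a gene is called lower or higher where limma, fitted to all genes, gave a Benjamini-Hochberg adjusted p under 0.05. The dye swap of replicate 1 stood apart: the scanner software marked 75.3% of its gene spots as outliers, against 0.231% to 0.399% on the other arrays, and only 15 of the 37 genes kept a value there. The other 22 rested on 3 arrays, and for them replicate 1 was its first array alone. On that dye swap the raw median signals were 4377 for the RNA labelled Lgr5-GFP and 1358 for the RNA labelled CD24hi. On the other arrays they ran from 94.2 to 197, so the values kept from it are less certain. Across genes the arrays correlated at r = 0.72 to 0.96.

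The genes behind the sort did not match the labels. Lgr5 had log2 ratios of -3.61, -2.90 and -3.51 on its 3 arrays and was called lower in the RNA labelled Lgr5-GFP (adjusted p = 0.000621, limma). Cd24a, which encodes CD24, had ratios of 2.30, 1.51, 2.25 and 2.42 and was called higher there (adjusted p = 0.000776, limma). Of 15 goblet cell genes 12 were called higher in the RNA labelled Lgr5-GFP, against 21.7% of all genes tested, with a median of 2.57. The 3 not called were Tff3 (-1.75 in replicate 1 and -0.16 in replicate 2), Fcgbp (-0.41 and 0.61) and Zg16 (0.80 and -0.20). Of 13 tested intestinal stem cell genes 8 were called lower and 1 higher, against 25.5% and 21.7% of all genes tested, with a median of -1.06. Every direction below follows the labels, and the population it is assigned to rests on them.

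Purines and pyrimidines are built from small molecules by long enzyme chains, joined to ribose supplied as phosphoribosyl pyrophosphate. Ribonucleotide reductase then turns ribonucleotides into the deoxynucleotides of DNA, and the folate cycle, charged with one-carbon units from serine, supplies carbon for purines and for thymidylate. Polyamines are small charged molecules made from ornithine and decarboxylated S-adenosylmethionine. Dividing cells, such as those of the lower colonic crypt, draw on all of these routes.

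A group of members shares a short letter sequence near their start, and those stretches are shown first. RefSeq promoter windows (GRCm38.p6, 250 bases before to 50 after the annotated start) were matched by symbol for 34 of the 37 members, and not for Srm, Dhodh and Pfas. The palindrome CACGTG, the core of the E-box read by Myc and related factors, lay in the windows of 7 of 34 members, against 8.09% of all 27025 symbols with a window and 11.5% of the 9888 tested genes with one. It was found in 7 of 23 members called lower, in 0 of 2 called higher and in 0 of 9 not called. Most of the 34 were called lower, and shares by call over all tested genes were not counted. A link of the motif to direction was not tested. Nme1 holds it in both of its listed windows. Each stretch of 30 bases has the motif in capitals, and the coordinates are those of the stretch.
Atic (chr1:71557137-71557166, plus strand): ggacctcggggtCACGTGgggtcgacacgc
Dtymk (chr1:93802065-93802094, minus strand): gtctcgaacttcCACGTGaccagagcctgc
Impdh2 (chr9:108560314-108560343, plus strand): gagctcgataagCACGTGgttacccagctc
Nme1 (chr11:93968037-93968066, minus strand): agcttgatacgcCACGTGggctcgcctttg
Nme1 (chr11:93968273-93968302, minus strand): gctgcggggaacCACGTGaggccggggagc
Paics (chr5:76951087-76951116, plus strand): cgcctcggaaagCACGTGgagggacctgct
Sms (chrX:157492466-157492495, minus strand): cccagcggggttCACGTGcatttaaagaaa
Tyms (chr5:30073669-30073698, minus strand): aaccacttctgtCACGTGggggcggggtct

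The motif began 7 bases before the start of Atic and 203 bases before that of Paics, and the others lay between. The matches are a description of the letters in these windows, and no binding was measured here.

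The 2 genes of the purine step with the lowest ratios, Paics and Ppat, are neighbours on chromosome 5, on opposite strands, with annotated starts 276 bases apart (GRCm38.p6). The letters TTTCCCGC, a core of E2F sites, were found on either strand in the windows of 2 of 34 members, Ppat and Prps2, against 1.24% of all symbols and 2.27% of tested genes. Ppat holds them in 2 places, shown here as 30-base stretches in the direction of the gene, with the motif in capitals as its reverse complement.
Ppat (chr5:76951718-76951747, minus strand): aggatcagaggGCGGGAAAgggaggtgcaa
Ppat (chr5:76951771-76951800, minus strand): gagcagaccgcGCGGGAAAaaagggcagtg

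The promoters of Impdh2, Impdh1, Rrm1 and Mthfd2 are given in full for the 250 bases before the start, because they belong to genes that moved in opposite directions: Impdh2 and Rrm1 were lower, Impdh1 and Mthfd2 were higher. Capitals mark CACGTG and CCAAT, the box read by the factor NF-Y, on either strand. Impdh1 has 2 listed windows, and neither of them holds either motif. Only the window at the coordinates given is shown.
Impdh2 (chr9:108560186-108560435, plus strand): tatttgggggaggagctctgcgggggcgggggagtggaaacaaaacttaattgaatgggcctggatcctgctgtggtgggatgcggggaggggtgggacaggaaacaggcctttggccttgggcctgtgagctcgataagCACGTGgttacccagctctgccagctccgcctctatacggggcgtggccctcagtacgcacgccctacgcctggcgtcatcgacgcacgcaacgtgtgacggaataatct
Impdh1 (chr6:29212298-29212547, minus strand): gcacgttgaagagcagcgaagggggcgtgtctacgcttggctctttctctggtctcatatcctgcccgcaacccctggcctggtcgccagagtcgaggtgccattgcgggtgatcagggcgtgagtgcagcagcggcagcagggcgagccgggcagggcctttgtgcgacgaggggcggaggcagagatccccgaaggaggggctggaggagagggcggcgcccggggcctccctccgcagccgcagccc
Rrm1 (chr7:102441445-102441694, plus strand): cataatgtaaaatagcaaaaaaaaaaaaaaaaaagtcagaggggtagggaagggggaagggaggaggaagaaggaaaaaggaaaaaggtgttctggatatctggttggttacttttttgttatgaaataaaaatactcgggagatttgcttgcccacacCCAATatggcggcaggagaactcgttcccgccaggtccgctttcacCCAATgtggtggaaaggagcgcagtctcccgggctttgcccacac
Mthfd2 (chr6:83317605-83317854, minus strand): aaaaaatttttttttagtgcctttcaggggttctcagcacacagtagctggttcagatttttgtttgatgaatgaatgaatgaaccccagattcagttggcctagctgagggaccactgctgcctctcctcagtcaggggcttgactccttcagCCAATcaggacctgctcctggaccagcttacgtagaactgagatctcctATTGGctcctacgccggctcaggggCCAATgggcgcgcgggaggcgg

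CCAAT was in the windows of 16 of 34 members, against 41.1% of all symbols and 42.9% of tested genes. Rrm1 holds it at 2 places and Mthfd2 at 3, so genes of opposite direction both carry it. The letters TTTGGCGC were in the windows of 0 of 34 members (0.585% of all symbols), and TGATGNAA, a core of ATF4-type sites, was in that of Prps1 alone (4.51% of all symbols).

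Most of the 37 genes were lower in the RNA labelled Lgr5-GFP. limma called 25 of them lower, against a background of 25.5% of all genes tested, and 3 higher, against a background of 21.7%. The 9 others were not called. The median log2 ratio of the 37 was -0.87, with -0.93 in replicate 1 and -0.75 in replicate 2, beside a median of -0.07 over all genes tested. In both replicates 15 of the 37 were at least 2-fold lower, as were 896 of the 14802 genes. All 25 genes called lower and all 3 called higher had 1 sign on every array with a value. The calls were made from these same values, so the shared sign adds no support to them. All but Pfas were well above background in both populations on every array with a value, and Pfas was so on 3 of its 4 arrays in the RNA labelled Lgr5-GFP.

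**Figure D1:**
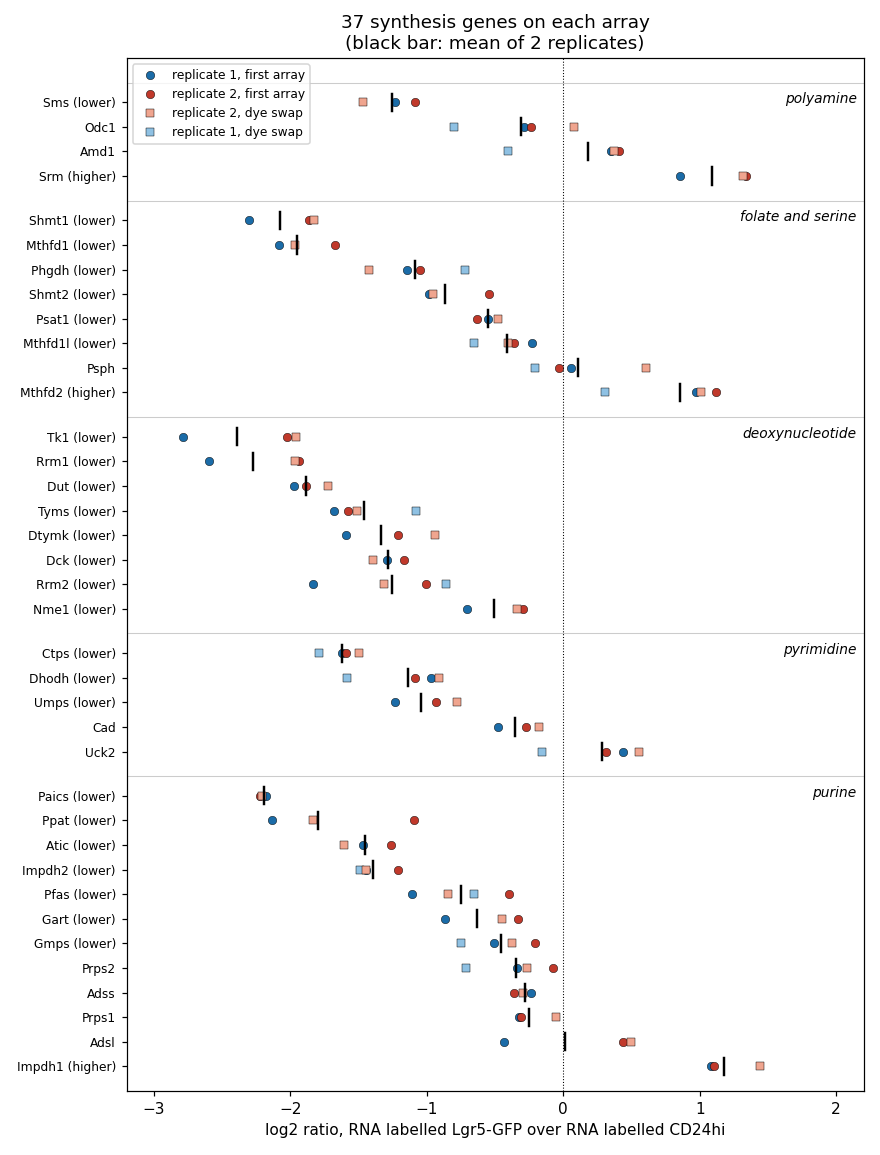
Log2 ratio of each of the 37 genes (rows, grouped by step) on each array (points; circles are first arrays, squares are dye swaps), with the mean of the 2 replicates as a black bar and the call beside the name. All 8 deoxynucleotide genes lie left of 0 on every array, while Impdh1, Mthfd2 and Srm lie right of 0 on every array.

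The counts depended on how the background was fitted. With the background model fitted on all spots, including 74 gene spots with a non-uniform local background on the first array of replicate 2, limma called 8 of the 37 lower and 2 higher, while 21 lower and 3 higher had an unadjusted p under 0.05. Calls lost there included those of Ppat, Shmt1 and Mthfd1 (adjusted p = 0.0597, 0.0608 and 0.0541, limma). Keeping marked spots lost 6 calls, those of Gart, Gmps, Mthfd1l, Nme1, Psat1 and Srm. Over all genes tested 3780 were called lower and 3205 higher, which became 5425 and 2219 with median centring in place of loess and 4995 and 2637 with the software's processed signals. With those processed signals the ratios of Pfas, Ppat, Dck and Rrm2 were -1.95, -2.67, -2.03 and -1.92. No member changed the sign of a call under any setting tried.

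Genes of the cell division cycle moved with this result. Of 26 such genes 25 were called lower and 0 higher, with a median of -2.22 and array medians from -2.69 to -1.89. Their summed normalized signal was 24790 to 36246 in the RNA labelled Lgr5-GFP and 169791 to 182036 in the RNA labelled CD24hi. These sums cover the 3 arrays with few marked spots, and the brightest genes weigh most in them. Goblet cell genes summed to 849555 to 1195200 in the RNA labelled Lgr5-GFP and 92473 to 171322 in the other. Of the tested genes, 6 of 6 tuft cell and 5 of 8 enteroendocrine genes were called higher, against 21.7% of all genes. In the RNA labelled CD24hi the tuft cell genes Avil, Ptgs1 and Dclk1 were well above background on 2, 1 and 2 of 4 arrays. They passed the filter through the RNA labelled Lgr5-GFP alone, so their calls carry little weight. The replicates of the enteroendocrine genes Gcg (-1.69 and 2.01) and Pyy (-0.94 and 2.48) lay on opposite sides of 0, and neither was called. Of 11 T, B and NK cell genes, 11 myeloid genes and 12 stromal and endothelial genes, 3 each were bright enough to test. In the RNA labelled Lgr5-GFP, 7, 8 and 8 of the listed genes were not well above background on any of the 3 arrays with few marked spots. In the RNA labelled CD24hi, 3, 5 and 6 of them were not. The 10 absorptive colonocyte genes had 4 called higher and 0 lower, and of 4 red blood cell genes on the array 2 were tested and neither was called. The part of these cell types and of cell division in the ratios of the 37 genes was not tested. In such sorted bulk RNA, fewer cells that make a transcript and less of it per cell cannot be told apart.

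The medians of the steps were -1.40 for deoxynucleotide, -1.04 for pyrimidine, -0.71 for folate and serine, -0.55 for purine and -0.07 for polyamine genes. Called lower were 8 of 8, 3 of 5, 6 of 8, 7 of 12 and 1 of 4, in that order, all against the same background of 25.5%. In replicate 1 the purine and folate and serine medians were -0.75 and -0.74 and in replicate 2 -0.36 and -0.65, so their order was not fixed. Without the first array of replicate 1 they were -0.52 and -0.24, but over only 5 of the 12 and 4 of the 8 genes. The differences between steps were not tested, and the steps share arrays.

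**Figure D2:**
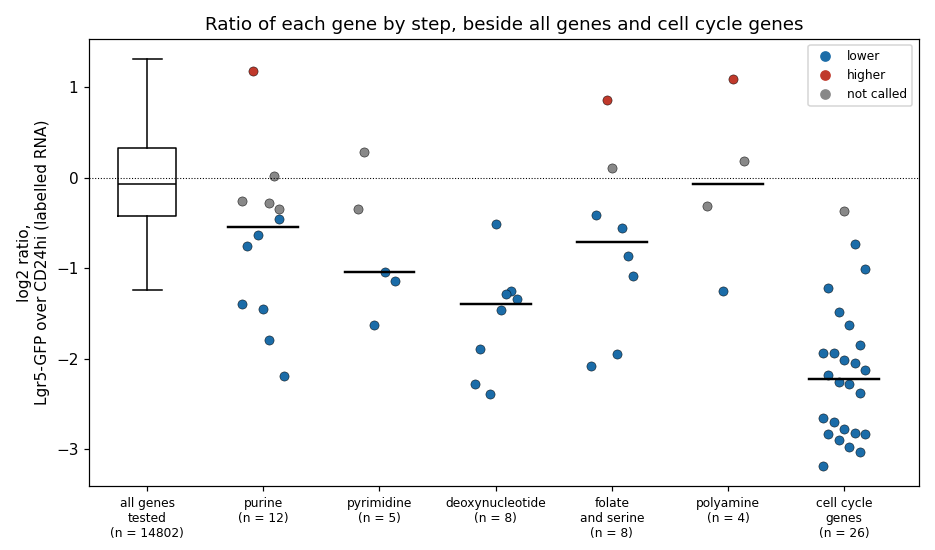
Log2 ratio of each gene (points, coloured by call, with the median as a bar) in the 5 steps and among cell cycle genes, beside a box of all 14802 genes tested (median and quartiles, whiskers at the 5th and 95th percentiles). The deoxynucleotide genes are all called lower with a median of -1.40, the polyamine genes lie on both sides of 0, and the cell cycle genes have a median of -2.22.

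All 8 genes that supply deoxynucleotides were called lower in the RNA labelled Lgr5-GFP. With the background fitted on all spots, the calls of Tk1, Rrm1, Rrm2, Dtymk, Dck and Nme1 were lost. Their adjusted p-values were then 0.0611, 0.0617, 0.0583, 0.0616, 0.0545 and 0.135 (limma), and their ratios stayed below 0. The lowest of the 37 genes was Tk1, the thymidine kinase that returns thymidine to the nucleotide pool, measured by a probe at chr11:117677105-117677164 (mm9). Its log2 ratio was -2.79 on the first array of replicate 1, and -2.03 and -1.96 on the arrays of replicate 2. All 3 arrays were far below 0, the mean was -2.39 ± 0.56 (SD, n = 2), a 5.24-fold lower signal, and limma gave an adjusted p of 0.00106.

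Ribonucleotide reductase, which makes deoxynucleotides from ribonucleotides, has a large subunit, Rrm1, and a small one made in dividing cells, Rrm2. Rrm1 (chr7:109617223-109617283, mm9) had log2 ratios of -2.60, -1.94 and -1.97, again with replicate 1 the lower, and a mean of -2.28 ± 0.46 (SD, n = 2; adjusted p = 0.000926, limma). Rrm2 (chr12:25398619-25398675, mm9) had -1.83 on the first array of replicate 1, -0.86 on its dye swap, and -1.01 and -1.32 in replicate 2, with a mean of -1.25 ± 0.13 (SD, n = 2; adjusted p = 0.00151, limma). Rrm2 spread more between the 2 arrays of replicate 1 than between replicates. Within each of the 3 arrays that measured both, Rrm1 was the lower by 0.65 to 0.93 on the log2 scale, a difference that was not tested. Rrm2b, the alternative small subunit, was not bright enough to test.

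The enzymes of thymidylate supply also had lower signals. Dut, which splits dUTP, had a mean log2 ratio of -1.89 ± 0.12 (SD, n = 2), Tyms, which makes thymidylate from deoxyuridylate with a folate carbon, -1.46 ± 0.12 (SD, n = 2), and Dtymk, which phosphorylates thymidylate, -1.33 ± 0.37 (SD, n = 2). Tyms was the one of these with a value on the dye swap of replicate 1, at -1.08, closer to 0 than its -1.68, -1.58 and -1.51 on the other arrays. Dck, deoxycytidine kinase, had a mean of -1.29 ± 0.01 (SD, n = 2), and -2.03 with processed signals. Nme1, a nucleoside diphosphate kinase that acts on all nucleotides, was the highest of the step at -0.70, -0.29 and -0.34 on 3 arrays, with a mean of -0.51 ± 0.27 (SD, n = 2; adjusted p = 0.0351, limma). The call of Nme1 was lost without the dye swap of replicate 2 (adjusted p = 0.0536), and over all settings its adjusted p reached 0.135.

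Of the 12 purine genes 7 were lower and Impdh1 was higher. Paics, which carries the sixth and seventh activities of the pathway in 1 protein, had the lowest ratio (chr5:77396199-77396258, mm9). Its log2 ratios were -2.18, -2.22 and -2.21, so close that the SD of the replicates was 0.03, with a mean of -2.19 (n = 2; adjusted p = 0.000638, limma) and a signal 4.58-fold lower. A second, dimmer Paics probe had -1.17. Ppat (chr5:77342626-77342685, mm9), the amidotransferase of the first committed step, had -2.13 on replicate 1 and -1.09 and -1.84 on replicate 2. Its mean was -1.80 ± 0.47 (SD, n = 2; adjusted p = 0.00161, limma), with the first array of replicate 2 nearest to 0.

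The enzymes between and after these were uneven along the chain. Gart, which carries 3 activities of the pathway, had a mean log2 ratio of -0.63 ± 0.34 (SD, n = 2), Pfas, a second amidotransferase of the chain, -0.75 ± 0.18 (SD, n = 2), and Atic, which closes the purine ring, -1.45 ± 0.02 (SD, n = 2). All 3 were called lower. Adsl, the lyase that acts between Paics and Atic and again on the way to AMP, had -0.44 on replicate 1 and 0.44 and 0.50 on replicate 2. Its replicates lay on opposite sides of 0 and its mean was 0.01 ± 0.64 (SD, n = 2; adjusted p = 0.967, limma).

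After inosine monophosphate the path forks to AMP and GMP, and here the paralogs of IMP dehydrogenase, the rate-limiting enzyme of the GMP branch, went opposite ways. Impdh2 (chr9:108467023-108467082, mm9) had log2 ratios of -1.45, -1.49, -1.21 and -1.45 and a mean of -1.40 ± 0.10 (SD, n = 2; adjusted p = 0.00111, limma). Impdh1 (chr6:29150442-29150501, mm9) had 1.08, 1.11 and 1.45 on 3 arrays and a mean of 1.18 ± 0.14 (SD, n = 2; adjusted p = 0.00181, limma). No array of one overlapped any array of the other, and each call held in every setting with a test that gave it a value. Within arrays Impdh2 lay 2.32 to 2.89 below Impdh1 on the log2 scale. Gmps, the next enzyme to GMP, had a mean of -0.46 ± 0.24 (SD, n = 2; adjusted p = 0.0429, limma), which was lost without the dye swap of replicate 2 (adjusted p = 0.0867) or the first array of replicate 1 (0.392), the highest over its settings.

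Adss, which starts the AMP branch, had log2 ratios of -0.23, -0.36 and -0.29 (mean -0.28 ± 0.06, SD, n = 2; adjusted p = 0.114, limma) and was not called. The synthetases of phosphoribosyl pyrophosphate were not called either. Prps1 had -0.32, -0.31 and -0.05, and Prps2 -0.34, -0.71, -0.07 and -0.27, with means of -0.25 ± 0.10 and -0.35 ± 0.25 (SD, n = 2). Their values overlapped, with a mean difference of 0.10 ± 0.15 (SD, n = 2) on the log2 scale. With median centring in place of loess, which moved the median of all genes from -0.07 to -0.25, Adss, Prps1, Prps2 and the pyrimidine gene Cad were called lower.

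**Figure D3:**
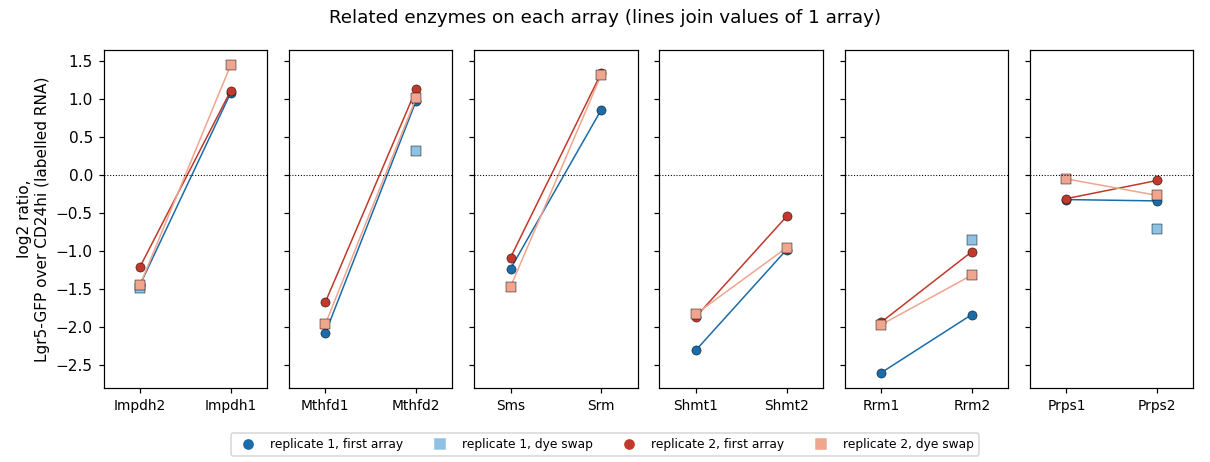
Log2 ratio on each array of 6 pairs of related or consecutive enzymes, with lines joining the values of 1 array. Impdh2, Mthfd1 and Sms lie below 0 and Impdh1, Mthfd2 and Srm above 0 on every array, while Prps1 and Prps2 overlap just below 0.

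Of the pyrimidine genes, the 3 later enzymes were lower and the first was not called. Ctps, which makes CTP from UTP (chr4:120212489-120212548, mm9), had log2 ratios of -1.62, -1.79, -1.60 and -1.49, a narrow range on all 4 arrays. Its mean was -1.62 ± 0.11 (SD, n = 2; adjusted p = 0.000869, limma), 3.08-fold lower. Its paralog Ctps2 had a mean of -0.67 ± 0.28 (SD, n = 2) and was also called lower, but not without the first array of replicate 1 (adjusted p = 0.347, the highest over its settings) or with the background fitted on all spots (0.0668). Dhodh, the mitochondrial enzyme of the chain, had -0.97, -1.58, -1.08 and -0.91 and a mean of -1.14 ± 0.20 (SD, n = 2; adjusted p = 0.00226, limma). Umps, which completes uridine monophosphate, had a mean of -1.04 ± 0.26 (SD, n = 2; adjusted p = 0.00348, limma).

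Cad, the protein of the first 3 activities of pyrimidine synthesis, had log2 ratios of -0.48, -0.27 and -0.18 and a mean of -0.35 ± 0.18 (SD, n = 2; adjusted p = 0.0778, limma). Its 4 kept probes ran from -0.35 to 0.17 and none of them was called. Uck2, which salvages uridine and cytidine, was the highest of the step, with 0.43, -0.15, 0.31 and 0.55 and a mean of 0.29 ± 0.21 (SD, n = 2; adjusted p = 0.138, limma). Its dye swap of replicate 1 was the one array below 0, and its second probe, at 0.65, was called higher. Without that dye swap Uck2 was called higher (adjusted p = 0.0115). Cad, which had no value on that array, was then called lower (0.0379) at an unchanged ratio of -0.35. Its call thus moved with the fit across all genes.

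Of the 8 folate and serine genes 6 were lower and Mthfd2 was higher. Serine hydroxymethyltransferase moves the one-carbon unit from serine to folate, in the cytosol as Shmt1 and in the mitochondrion as Shmt2. Shmt1 (chr11:60603099-60603158, mm9) had log2 ratios of -2.30, -1.87 and -1.83 and a mean of -2.08 ± 0.32 (SD, n = 2; adjusted p = 0.000825, limma). Shmt2 had -0.98, -0.55 and -0.96 and a mean of -0.87 ± 0.16 (SD, n = 2; adjusted p = 0.00441, limma). The arrays of the pair did not overlap, and Shmt1 was the lower by 0.87 to 1.32 within arrays. A second Shmt1 probe had -1.10.

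Enzymes that interconvert the one-carbon forms of folate went both ways. Mthfd1, the cytosolic trifunctional enzyme (chr12:77418622-77418681, mm9), had log2 ratios of -2.08, -1.68 and -1.96 and a mean of -1.95 ± 0.19 (SD, n = 2; adjusted p = 0.000734, limma). Its second probe had -1.11. Mthfd2, a mitochondrial dehydrogenase and cyclohydrolase (chr6:83256518-83256577, mm9), had 0.97, 0.31, 1.12 and 1.01 and a mean of 0.85 ± 0.30 (SD, n = 2; adjusted p = 0.00739, limma). All 4 arrays of Mthfd2 were above 0, the dye swap of replicate 1 the least so. Its adjusted p rose to 0.206 with the first array of replicate 1 left out, the highest over all settings, where 18 of the 37 genes kept values. Mthfd1l, the mitochondrial formate-releasing synthetase, had -0.23, -0.66, -0.36 and -0.41 and a mean of -0.41 ± 0.04 (SD, n = 2; adjusted p = 0.0376, limma). That call was lost in 8 settings, among them those without the first array of replicate 1, its dye swap or the dye swap of replicate 2, with adjusted p of 0.390, 0.0512 and 0.0510.

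Serine is made from a glycolytic intermediate in a chain of 3 enzymes, of which the first 2 were lower. Phgdh, the first dehydrogenase, had a mean log2 ratio of -1.08 ± 0.21 (SD, n = 2), and all 3 of its kept probes were called lower. Psat1, the transaminase, had -0.55 on replicate 1 and -0.63 and -0.48 on replicate 2, with a mean of -0.55 (SD 0.004, n = 2; adjusted p = 0.0146, limma). Psph, the phosphatase that releases serine, had 0.06, -0.21, -0.03 and 0.61 on the 4 arrays, on both sides of 0, and a mean of 0.11 ± 0.26 (SD, n = 2; adjusted p = 0.584, limma).

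The 4 polyamine genes showed no common direction. Srm, spermidine synthase (chr4:147968433-147968492, mm9), had log2 ratios of 0.86, 1.34 and 1.32 and a mean of 1.09 ± 0.33 (SD, n = 2; adjusted p = 0.00388, limma), 2.13-fold higher. Its call was lost when marked spots were kept (0.84, adjusted p = 0.0836, its highest over all settings). Sms, spermine synthase, which uses the product of Srm (chrX:153883706-153883765, mm9), had -1.23, -1.09 and -1.47 and a mean of -1.26 ± 0.03 (SD, n = 2; adjusted p = 0.00133, limma). These consecutive enzymes lay apart by 2.09 to 2.79 on the log2 scale within arrays. A dim second Sms probe had -0.43, with the RNA labelled Lgr5-GFP well above background on 1 of 4 arrays.

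The enzymes that feed both synthases were not called. Odc1, ornithine decarboxylase, had log2 ratios of -0.29, -0.80, -0.23 and 0.08 and a mean of -0.31 ± 0.33 (SD, n = 2; adjusted p = 0.155, limma), with a second probe at 0.21. Amd1, the decarboxylase of S-adenosylmethionine, had 0.35, -0.40, 0.41 and 0.37 and a mean of 0.18 ± 0.29 (SD, n = 2; adjusted p = 0.367, limma). Its dye swap of replicate 1 lay on the other side of 0 from the rest, and without it Amd1 was called higher (0.37, adjusted p = 0.0223). Amd2, a near-identical copy, had 0.08, 0.44 and 0.63, and the probes may not separate the pair.

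For the genes around these routes, each count is given beside the 25.5% of all genes called lower and the 21.7% called higher. Of 12 tested genes of deoxynucleotide salvage and turnover 7 (58.3%) were called lower and 3 (25.0%) higher, with a median of -0.44. Dctpp1, which clears dCTP, and Nme4, a mitochondrial kinase, were lowest at -1.37 ± 0.38 and -1.27 ± 0.17 (SD, n = 2). Samhd1, which degrades deoxynucleotides, and Tk2, the mitochondrial thymidine kinase, were highest at 1.13 ± 0.17 and 0.70 ± 0.07 (SD, n = 2). The Tk2 call was lost with the background fitted on all spots (adjusted p = 0.0968), with median centring in place of loess (0.0518) and with marked spots kept (0.102), the highest over its settings.

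Of 26 tested genes of the folate, glycine and methionine cycle 5 (19.2%) were called lower and 6 (23.1%) higher, shares near those of all genes, with a median of -0.05. Slc19a1, the reduced folate carrier, had log2 ratios of -1.56, -1.49 and -1.51 and a mean of -1.53 ± 0.04 (SD, n = 2; adjusted p = 0.000908, limma). Sardh, which breaks down sarcosine, was called higher at 1.29 ± 0.02 (SD, n = 2). Aldh1l2, which oxidises mitochondrial formyl folate, was called higher too, but the RNA labelled CD24hi was well above background on 1 of 4 arrays, so its size is uncertain, with 1.32 ± 0.63 (SD, n = 2) as reported and 3.35 with processed signals.

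Purine salvage and interconversion had 5 of 18 tested genes (27.8%) lower and 4 (22.2%) higher, shares near those of all genes, with a median of -0.16. Adk, adenosine kinase, had -1.05 ± 0.23 (SD, n = 2), while Guk1, guanylate kinase, had 1.97 ± 0.52 and Ampd3, an AMP deaminase, 1.11 ± 0.14 (SD, n = 2). Adssl1, a paralog of Adss, was called lower, with the RNA labelled Lgr5-GFP well above background on 3 of 4 arrays and a ratio of -1.28 ± 0.12 (SD, n = 2) as reported but -2.62 with processed signals. With no filter on dim probes Ampd3 was shown by another probe, at 0.18 and not called. Pyrimidine salvage and breakdown had 3 of 10 lower and 4 higher, with a median of 0.29. Dpyd, which starts pyrimidine breakdown, had -1.43 ± 0.07 and Cda, cytidine deaminase, -0.87 ± 0.15 (SD, n = 2), or -1.48 with processed signals. Cmpk1, the kinase of UMP and CMP, had 1.67 ± 0.45 and Nt5c3, a nucleotidase, 1.05 ± 0.18 (SD, n = 2), with the Nt5c3 call lost without the first array of replicate 1 (0.60, adjusted p = 0.295).

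Around polyamines, 4 of 21 tested genes (19.0%) were called lower and 5 (23.8%) higher, shares near those of all genes, with a median of 0.06. Arg1, an arginase that releases ornithine, had log2 ratios of 2.38, 2.09 and 1.98 and a mean of 2.21 ± 0.24 (SD, n = 2; adjusted p = 0.000687, limma). With processed signals it was 4.06, and with the background fitted on all spots its call was lost (1.69, adjusted p = 0.0604, the highest over its settings). Oaz2, an antizyme that restrains ornithine decarboxylase, had 1.46 ± 0.54 (SD, n = 2), with 0.47 on the dye swap of replicate 1 and 1.68 to 1.86 on the other arrays. Eif5a2, a paralog of the translation factor that carries the polyamine-derived residue hypusine, was called lower at -0.47 ± 0.03 (SD, n = 2), against -0.74 with processed signals, and lost its call with marked spots kept (adjusted p = 0.139) or the background fitted on all spots (0.141, the highest over its settings). Gatm, which uses arginine to make creatine's precursor, was called lower, but the RNA labelled Lgr5-GFP was well above background on 2 of 4 arrays, so its size is uncertain, with -1.24 ± 0.39 (SD, n = 2) as reported and -3.28 with processed signals. Sat1, which acetylates polyamines, and the antizyme Oaz1 were not called, at -0.11 ± 0.47 and 0.37 ± 0.59 (SD, n = 2), and without the dye swap of replicate 1 Oaz1 was called higher (adjusted p = 0.0128).

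Glutamine and aspartate donate nitrogen to both ring systems. Of the 11 genes of their supply 4 (36.4%) were called lower and 5 (45.5%) higher, with a median of 0.26. Glud1, glutamate dehydrogenase, was called lower at -0.50 ± 0.05 (SD, n = 2), and lost that call without the dye swap of replicate 2 (adjusted p = 0.0698) and without the first array of replicate 1 (0.399). Gpt2, alanine transaminase, had log2 ratios of 2.79, 0.69, 2.29 and 2.46 with a mean of 2.06 ± 0.45 (SD, n = 2), and Asns, asparagine synthetase, 0.52 on the dye swap of replicate 1 and at least 1.52 on the other arrays, with a mean of 1.42 ± 0.22 (SD, n = 2). Both were above 0 on every array and least on the dye swap of replicate 1.

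**Figure D4:**
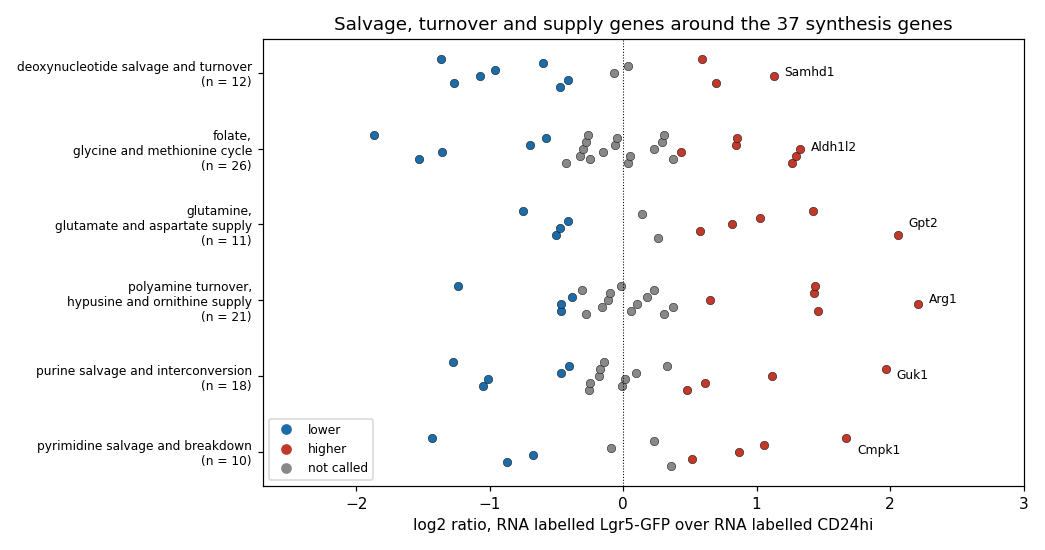
Log2 ratio of each tested gene (points, coloured by call) in 6 lists of salvage, turnover and supply genes, with the highest gene of each list named. Each list holds genes called lower and genes called higher, and the highest of all is Arg1 at 2.21.

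Other kept probes of the same genes mostly had like directions. Of 22 members with at least 2 kept probes, 2 had probes on both sides of 0, Cad and Odc1, and 0 had probes called in opposite directions. The widest gaps between probes were 1.03 for Paics, 0.98 for Shmt1, 0.88 for Dck, 0.84 for Mthfd1 and 0.83 for Sms on the log2 scale. The second probes of Dck and Sms passed the filter through the RNA labelled CD24hi alone, being well above background on 2 and 1 of 4 arrays in the other, so their ratios are uncertain. For Paics, Shmt1 and Mthfd1 the brighter probe had the lower ratio and both probes were called lower. Probes that failed the filter were not fitted. Such probes lay on both sides of 0 for Rrm1 (0.06, -0.08 and 0.05) and Pfas (0.02, -0.07 and 0.28). The same held for Umps (-0.14, 0.44, 0.0006 and 0.03) and Gart (-0.09, 0.12 and 0.04). Those of Dck (-0.38, -0.17 and -0.17) and Tyms (-0.23, -0.09 and -0.24) lay below 0.

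**Figure D5:**
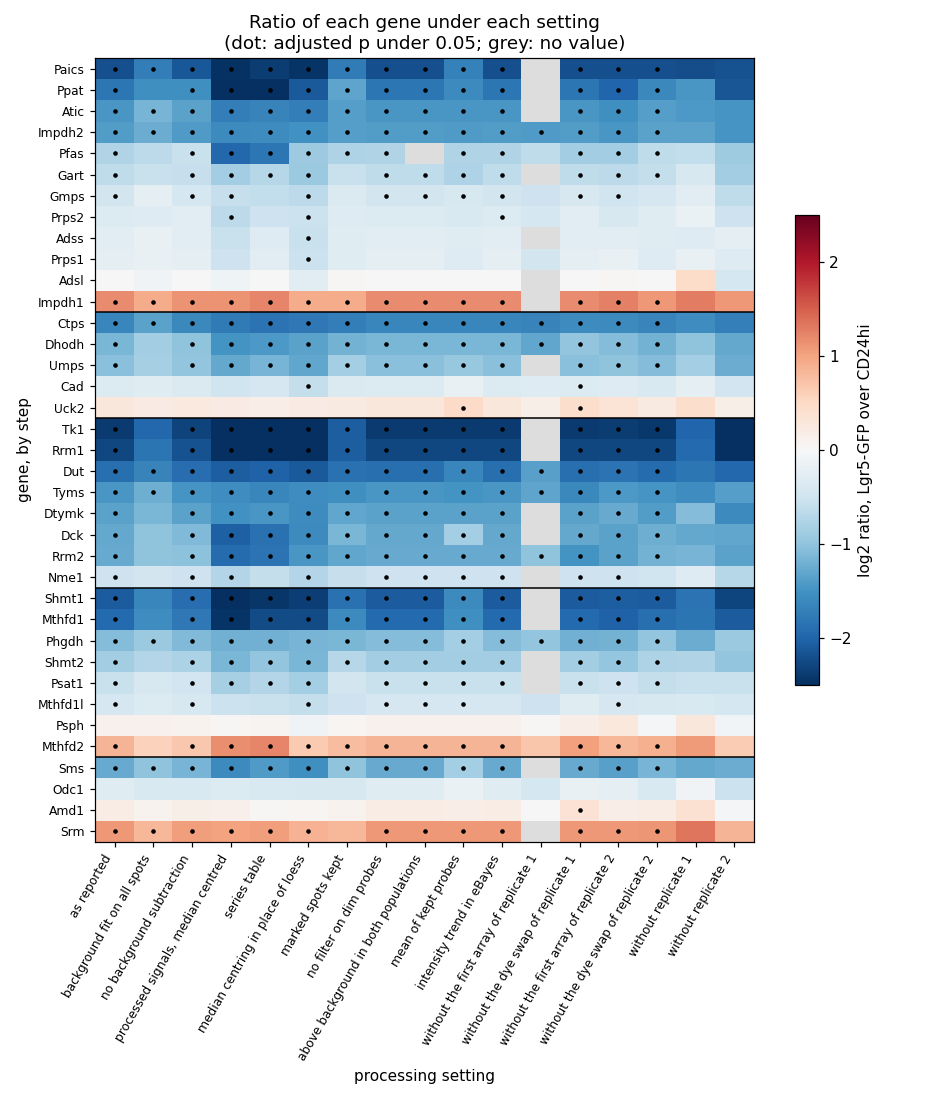
Log2 ratio of each of the 37 genes (rows, by step) under each processing setting (columns), in blue where lower and red where higher in the RNA labelled Lgr5-GFP, with a dot where the adjusted p was under 0.05 and grey where there was no value. Genes called as reported keep their colour in every column. The columns without replicate 1 and without replicate 2 had no test and so hold no dots. Among the other columns, dots are fewest with the background fitted on all spots and when replicate 1 lacks its first array.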

How the data were processed

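RNA of 2 sorted populations was measured on 4 Agilent 2-colour arrays read with Feature Extraction 10.5.1.1, per the file headers. The deposited intensity values were mean spot and median local background signals, not normalized, and a processed intensity. The deposited log10 ratio was red over green of processed signals. The deposited series table held log2 ratios of red over green, as found by setting it against those (r across probes 0.977, 0.923, 0.950 and 0.986, slopes 3.22, 2.91, 3.21 and 3.30, medians -0.01, 0.03, -0.01 and -0.01). For its normalization method no source used here gives a name.

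In limma 3.58.1 (R 4.3.3), signals were corrected with normexp (offset 50) without spots of non-uniform background, marked spots were left out (100, 32648, 173 and 163 of 43379 gene spots), and loess was run with control spots at weight 0. Probes were kept if either population was well above background on all 4 arrays, and the brightest gave the gene's value. For the summed signals alone, mean log2 signals were also quantile normalized between arrays (Aquantile). Replicate ratios were fitted with eBayes (1 residual and 4.50 prior degrees of freedom). Slide and replicate coincide and cannot be told apart. RefSeq accessions named 27041 gene spots, and 57 of 69 member spots, all with the file's own name. Probe positions are mm9, and exon or UTR positions were not analysed here.

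The members and lists were chosen with earlier results of these data known. The processing, with spots of non-uniform background left out, also followed an earlier analysis of the same data whose results were known. All members could be named, with every array's value for each step's lowest 2 and highest 1, those called higher or not called, and related pairs. Of other lists the 2 called genes with the largest ratio each way, and direct counterparts of members, were named, except where a result is not reported here. The fit was tested on simulated data. Alternatives covered background, normalization, marked spots, filter, probe choice, trend, and each array and replicate left out.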

Additional observations from a re-analysis of the deposited data

Results flagged for a closer look

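On the first array of replicate 2, Impdh2 had a log2 ratio of -1.21, against -1.49 to -1.45 on the other 3 arrays. On the dye swap of replicate 1, Amd1 had -0.40, against 0.35 to 0.41 on the others. Of the 15 members with a value on all 4 arrays, these 2 had 1 array whose gap to the nearest of the others exceeded Dixon's 95% limit for 4 values, which chance exceeds in about 1 in 20.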

How the results depend on the processing

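Of the 37 genes 0 reversed a call under any alternative. Members called lower numbered 25, with 8 when the background was fitted on all spots, where 577 genes were called lower and 722 higher of 14802, and 7 to 25 when single arrays were left out. Without the first array of replicate 1 only 18 members kept values. Members called higher numbered 3, with 0 to 5 when single arrays were left out. The median of the members moved from -0.87 to -1.21 with processed signals, -1.16 with the series table and -1.15 with median centring in place of loess. The deoxynucleotide median of -1.40 became -1.18 (background on all spots), -1.98 (processed signals), -1.86 (series table) and -1.57 (median centring), and the folate and serine median of -0.71 became -0.57, -0.98, -0.86 and -1.001 under the same settings, -0.63 with no background subtraction and -0.61 with marked spots kept. The polyamine median of -0.07 became 0.00094 as the mean of kept probes, 0.09 without the dye swap of replicate 1 and 0.15 without replicate 1. Over all settings the purine median of -0.55 ran from -0.79 to -0.36. The pyrimidine median of -1.04 ran from -1.31 to -0.81. The cause of these moves was not tested. With single arrays or replicates left out, the medians ran from -0.97 to -0.52 for all members and -1.56 to -1.31 for deoxynucleotide genes. They ran from -0.74 to -0.24 for folate and serine and -0.29 to 0.15 for polyamine genes. Without the first array of replicate 1 these medians covered 18 members, with 3 deoxynucleotide, 4 folate and serine and 2 polyamine genes.
The series has 1 comparison, paired within arrays. With 2 replicates and 1 residual degree of freedom the test rests on the spread shared across genes, and the loss of most spots on 1 array left replicate 1 without a dye balance for 22 members. Signals over background were sufficient in both populations for 36 of 37 members.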
